A study of Mus musculus with 15 samples.

Results

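Group 2 innate lymphoid cells (ILC2) of the mouse small intestine were compared between the hours around dusk and the hours around dawn. The dusk libraries were those of zeitgeber times 10 and 16 h (ZT10, ZT16), and the dawn libraries those of 23 and 4 h (ZT23, ZT4). Members were chosen by the cell type and time in the labels, which gave 3 dusk and 4 dawn libraries, 7 of the 15 in the series; the other 8 hold ILC3. Each time had 2 libraries except ZT16, which had 1 and so no replicate of its own. All mice were female and received no treatment named in the labels, and neither strain, age, light schedule nor sorting gates are named in the labels. Intestines of 6 mice per time were digested and the cells pooled before sorting. The labels do not say whether both libraries of a time came from separate pools, so the p-values cover the spread of these samples alone, which may be technical.

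ILC2 are tissue lymphocytes that lack T and B cell receptors and answer epithelial alarmins and neuropeptides with interleukin-5, interleukin-13 and amphiregulin. Like most cells they carry the molecular clock, in which the BMAL1 and CLOCK proteins switch on the period and cryptochrome genes, whose products then shut BMAL1 and CLOCK down. BMAL1 and CLOCK bind the E-box, with the core letters CACGTG. They also drive the PAR bZIP factors DBP, TEF and HLF, which bind the D-box, a site that the repressor NFIL3 competes for. In mouse tissues that follow the light cycle, period gene transcripts usually reach their highest level around dusk.

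Promoters of clock genes were searched for these letters. The 4 windows shown belong to genes on which the clock comparison turns, or to their closest relative. The motifs were CACGTG, and TTATGTAA or TTATGCAA for the D-box. Both strands were read, and the motifs do not overlap each other in these windows. Windows of 250 bases before a start site came from RefSeq (build GRCm38.p6, which is mm10), and 21 of the 27 clock genes matched, with 30 windows in all. Per2 was among the clock genes without a window, so its promoter was not searched. A match was found in 8 windows of 7 genes. Over all 32851 windows of that length in the table, CACGTG was present in 6.02%, TTATGTAA in 0.819%, TTATGCAA in 0.694% and either D-box in 1.5%. In the lines below, capitals mark the matches and all other bases are in lower case.
Tef, upstream start site (chr15:81802423-81802672, plus strand): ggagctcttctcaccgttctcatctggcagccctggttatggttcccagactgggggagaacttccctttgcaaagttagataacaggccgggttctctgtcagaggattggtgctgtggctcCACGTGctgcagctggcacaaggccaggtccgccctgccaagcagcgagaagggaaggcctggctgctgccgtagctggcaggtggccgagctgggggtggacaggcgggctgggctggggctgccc
Tef, downstream start site (chr15:81811164-81811413, plus strand): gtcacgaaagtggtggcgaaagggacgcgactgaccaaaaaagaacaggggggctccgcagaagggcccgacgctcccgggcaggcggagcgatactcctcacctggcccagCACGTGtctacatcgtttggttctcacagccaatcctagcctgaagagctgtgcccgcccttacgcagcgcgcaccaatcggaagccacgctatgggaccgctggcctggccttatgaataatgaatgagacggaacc
Per3 (chr4:151044666-151044915, minus strand): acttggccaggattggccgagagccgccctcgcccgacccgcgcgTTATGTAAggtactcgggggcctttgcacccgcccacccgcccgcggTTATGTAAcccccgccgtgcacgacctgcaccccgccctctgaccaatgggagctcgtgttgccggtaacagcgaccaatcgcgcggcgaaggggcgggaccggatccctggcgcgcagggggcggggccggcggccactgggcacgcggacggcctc
Per1 (chr11:69098699-69098948, plus strand): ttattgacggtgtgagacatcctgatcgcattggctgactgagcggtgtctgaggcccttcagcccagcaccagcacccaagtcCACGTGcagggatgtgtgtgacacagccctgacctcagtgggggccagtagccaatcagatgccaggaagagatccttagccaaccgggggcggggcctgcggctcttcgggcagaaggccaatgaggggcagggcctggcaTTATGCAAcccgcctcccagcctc
Positions are counted back from the start site, with -1 as the last base shown. The CACGTG of Tef begins at -127 at one start site and at -138 at the other. Per3 carries TTATGTAA at -205 and again at -158. Per1 has CACGTG at -166 and TTATGCAA at -24. The Dbp window holds neither motif, which says only that these letters are not in these bases. Ciart (3 E-boxes), Bhlhe41 and Cry1 (an E-box each) and Timeless (a D-box) hold the remaining matches. A match is a run of letters and was not shown to be bound here.

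Total counts ran from 4016298 to 18538315 over the 7 libraries. Markers of the labelled cell type were present in every library. Gata3, the lineage factor, lay between 283 and 626 CPM (counts scaled to library size with edgeR's TMM factors), and the interleukin-33 receptor gene Il1rl1 between 80.9 and 154. These levels do not measure how pure a library was, and transcripts of other cells were present too. Replicate 1 of ZT4 stood apart on the first principal component (41.1% of the variance, score -107 against -3.09 to 39.7 in the others). Jchain, a plasma cell transcript, took 1.85% of counts in ZT23 replicate 2 and 15.7% in ZT23 replicate 1. Its share averaged 5.82% ± 2.91 (SD) at dusk and 8.18% ± 5.82 at dawn (two-sided exact permutation test over 35 arrangements, p = 0.629). With 3 against 4 libraries, the smallest p an exact test can give for a single arrangement is p = 0.0286. Of 14 such measures tested, each had an adjusted p of 0.743. All ILC2 libraries share batch 1 in the labels and all ILC3 libraries batch 2, so each dusk and dawn difference lies within a batch.

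Across all genes, no transcript passed the test between dusk and dawn. Of 12591 genes tested with edgeR's quasi-likelihood fit, 0 had a Benjamini-Hochberg adjusted p under 0.05 (0%), and the smallest adjusted p was 0.9702. At an unadjusted p under 0.05 there were 546 genes, 344 higher at dusk (2.73% of those tested) and 202 lower (1.6%). That total was 325 without ZT10 replicate 1, 357 without ZT4 replicate 2 and 1318 without ZT23 replicate 2, each with 0 adjusted calls. The excess of higher genes turned round in several settings. There were 322 higher and 371 lower without ZT4 replicate 1, 125 and 200 without ZT10 replicate 1, and 42 and 92 without both ZT10 libraries. With the trend of gene length taken out of each library, a setting chosen after the data were seen, there were 200 and 230, and with scaling by library size alone 419 and 119. DESeq2 on the same counts called 3 genes, the clock genes Per2 and Tef and the histone methyltransferase gene Kmt2b, at an adjusted p of 0.047 for each. Every dusk library lay above every dawn library in 479 genes (3.8%) and below in 301 (2.39%). The common biological coefficient of variation, the spread between libraries of a window, was 0.3519, with the times of a window pooled. The values that follow are therefore descriptions of individual genes. No gene named has an adjusted p below 0.9702 in that fit, and where an unadjusted p under 0.05 is counted it is edgeR's. A level is a mean ± SD of CPM over 3 dusk or 4 dawn libraries, and a difference is a fitted log2 fold change, dusk minus dawn, ± its standard error.

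Among the clock genes, the period genes Per2 and Per3 and the PAR bZIP genes Tef and Dbp stood highest at dusk. Of 27 clock genes, 25 were tested and Arntl2 and Rorb had 0 counts in every ILC2 library, which allows up to 3 counts over all 7, or 0.0359 CPM by counting error alone. An unadjusted p under 0.05 with a higher level at dusk was reached by 4 (16% of 25, beside 2.73% of all genes), and by 0 in the other direction. Per2, Per3, Tef and Csnk1d, 4 genes, lay above dawn in every dusk library (16%, beside 3.8% of all genes). The median difference over the 25 was 0.15, with 18 positive, against -0.02 over all genes. Without both ZT10 libraries, 1 of the 5 period and cryptochrome genes (Per2) and none of the 4 PAR bZIP and Nfil3 genes reached that unadjusted level. These genes were chosen with earlier results on them known.

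Per2 encodes a repressor at the core of the clock (Entrez 18627; mm10 chromosome 1, 91415977 to 91459351). It was at 31.7 and 29.2 CPM in the ZT10 libraries, 21.7 in that of ZT16, 7.92 and 3.44 in those of ZT23, and 9.78 and 10.3 in those of ZT4. All 3 dusk libraries were above all 4 dawn libraries, and the lowest values were those of ZT23. The means were 27.5 ± 5.23 at dusk and 7.85 ± 3.11 at dawn, a difference of 1.82 ± 0.358 (edgeR adjusted p = 0.97). Leaving out both libraries of ZT10 gave 1.48, so the ZT16 library alone also stood above dawn.

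Per3, a paralogue with a lesser role in timekeeping (Entrez 18628; chromosome 4, 150997018 to 151044707), had 28.4 and 23.6 CPM in the ZT10 libraries, 13.7 in that of ZT16, 7.24 and 3.44 in those of ZT23, and 11.1 and 10.7 in those of ZT4. The windows did not overlap, but ZT16 was closer to ZT4 than to ZT10. The difference was 1.44 ± 0.411, and 0.77 without the ZT10 libraries. Per1 is the period gene that also answers acute signals. It had 693 and 673 CPM in the ZT10 libraries, 440 in that of ZT16, 357 and 458 in those of ZT23, and 560 and 493 in those of ZT4. Its windows overlapped, because ZT16 lay below both ZT4 libraries (0.37 ± 0.219). The cryptochrome genes, partners of the period proteins, did not reach an unadjusted p under 0.05 and gave 0.44 ± 0.227 for Cry1 and 0.79 ± 0.415 for Cry2. Cry2 was at 26.2 and 23.6 CPM at ZT10 but at 13.8 at ZT16, inside the dawn range of 4.43 to 15.5.

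Tef, a PAR bZIP activator (Entrez 21685; chromosome 15, 81802673 to 81826863), had 98.1 and 103 CPM in the ZT10 libraries, 58.4 in that of ZT16, 25.7 and 25.9 in those of ZT23, and 43.0 and 43.6 in those of ZT4. The windows did not overlap, and at each of ZT10, ZT23 and ZT4 the 2 libraries lay close together. The means were 86.7 ± 24.6 at dusk and 34.6 ± 10.1 at dawn, a difference of 1.33 ± 0.271 (edgeR adjusted p = 0.97). It was 0.76 without the ZT10 libraries and 1.75 without those of ZT4.

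Dbp, the PAR bZIP gene known for the widest daily swing in many tissues (Entrez 13170; chromosome 7, 45705100 to 45710203), had 52.5 and 48.4 CPM in the ZT10 libraries, 19.1 in that of ZT16, 10.8 and 7.60 in those of ZT23, and 29.2 and 26.6 in those of ZT4. ZT16 lay below both ZT4 libraries, so the windows overlapped. The levels of 40.0 ± 18.2 at dusk and 18.5 ± 10.9 at dawn differed by 1.11 ± 0.484. That value rested on the times taken: it was 0.06 without the ZT10 libraries and 2.13 without the ZT4 libraries. Hlf, the remaining PAR bZIP gene, gave 0.40 ± 0.261, and Nfil3, the opposing repressor, -0.19 ± 0.212.

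**Figure D1:**
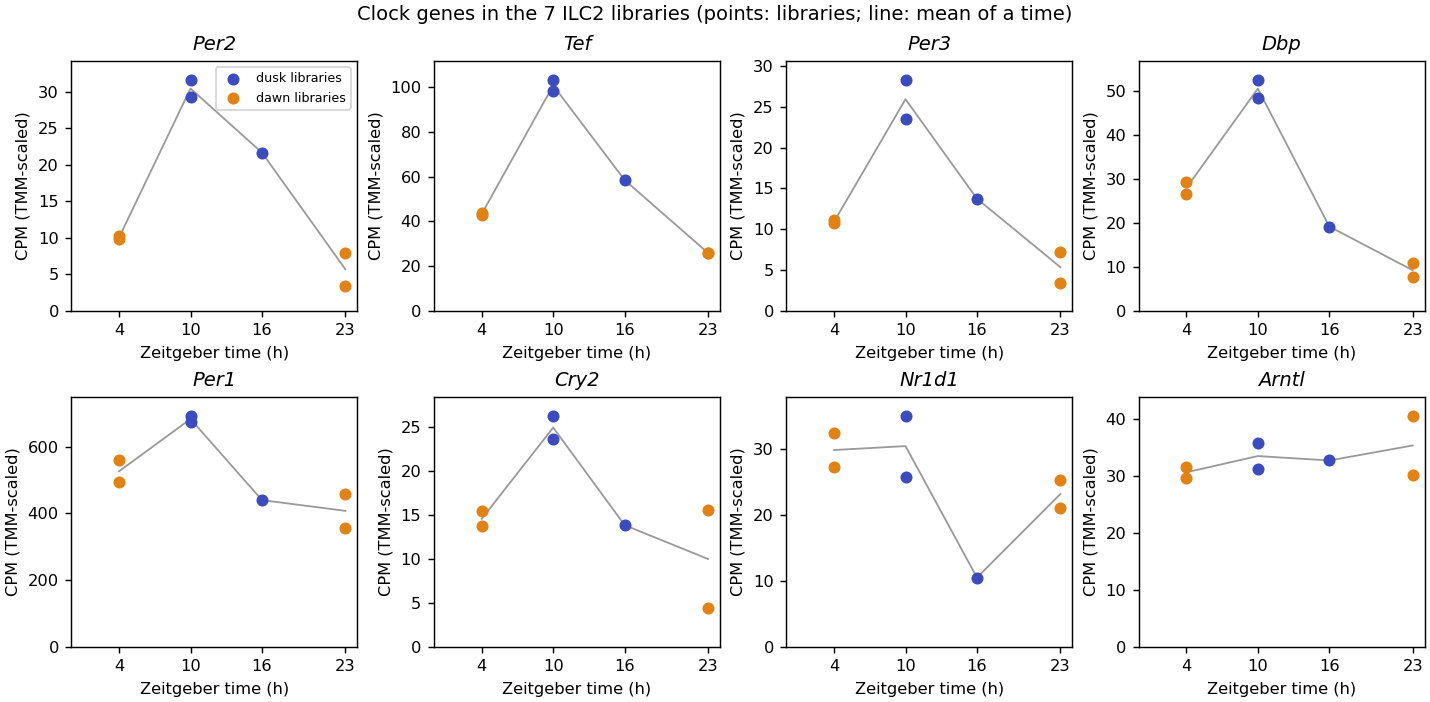
Level of 8 clock genes (CPM, TMM-scaled, linear axis from 0) against zeitgeber time in hours; each point is a library, blue for dusk and orange for dawn, and the grey line joins the mean of each time. Per2, Tef and Per3 show no overlap between the colours, Dbp at ZT16 (19.1) sits below ZT4, and Arntl stays between 29.6 and 40.6.

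For the activator arm and the nuclear receptors of the clock the windows overlapped. Arntl, which encodes BMAL1, was at 31.2, 35.7 and 32.7 CPM at dusk and at 30.1, 40.6, 29.6 and 31.6 at dawn. Its range at dusk lay inside its range at dawn (0.01 ± 0.188). Its partner Clock gave 0.25 ± 0.241 and the substitute partner Npas2 -0.20 ± 0.489. Nr1d1, encoding the repressor REV-ERB alpha, was at 35.0 and 25.8 CPM at ZT10 but 10.5 at ZT16, with 21.0 to 32.4 at dawn. ZT16 lay below every dawn library and the ZT10 libraries did not (-0.17 ± 0.349), and the difference was -1.34 when ZT16 stood alone for dusk. Nr1d2, for REV-ERB beta, likewise had more at ZT10 (226 and 204 CPM) than at ZT16 (86.6), beside 60.0 to 236 at dawn (0.42 ± 0.436). Rora, which ILC2 need to develop, gave 0.15 ± 0.296.

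The clock's kinases and repressors of the DEC family gave small differences. Csnk1d, a kinase that phosphorylates period proteins, was at 171, 159 and 138 CPM at dusk and at 116 to 135 at dawn. The windows did not overlap, but the gap was small (0.30 ± 0.153). Bhlhe40, for the repressor DEC1, was at 985 to 1580 CPM over the 7 libraries (-0.02 ± 0.214).

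In ILC3 the same contrast, made on 8 separate libraries, was computed to show where ILC2 differ. Of 13381 genes, 0 passed an adjusted p of 0.05 in edgeR (0%) and 1348 an unadjusted one (10.1%). Clock genes were among the latter in 6 of 25 cases (24%, beside 10.1% in either direction), all higher at dusk. Per2 was at 22.9 ± 4.34 CPM at dusk and 14.4 ± 3.65 at dawn in ILC3, a difference of 0.68 ± 0.235. The difference in ILC2 was higher by 1.14, with an edgeR adjusted p = 1 for the interaction. Per2 was the single clock gene of 25 with an interaction p under 0.05 (4%, beside 2.65% of 14221 genes). Over all genes the interaction had 377 genes at that level and 0 at an adjusted p of 0.05 (0%). Tef gave 0.86 ± 0.228 in ILC3, Per3 1.87 ± 0.504, Dbp 1.60 ± 0.435 and Hlf 1.15 ± 0.368. A difference between the cell types was therefore not detected for any clock gene after adjustment.

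**Figure D2:**
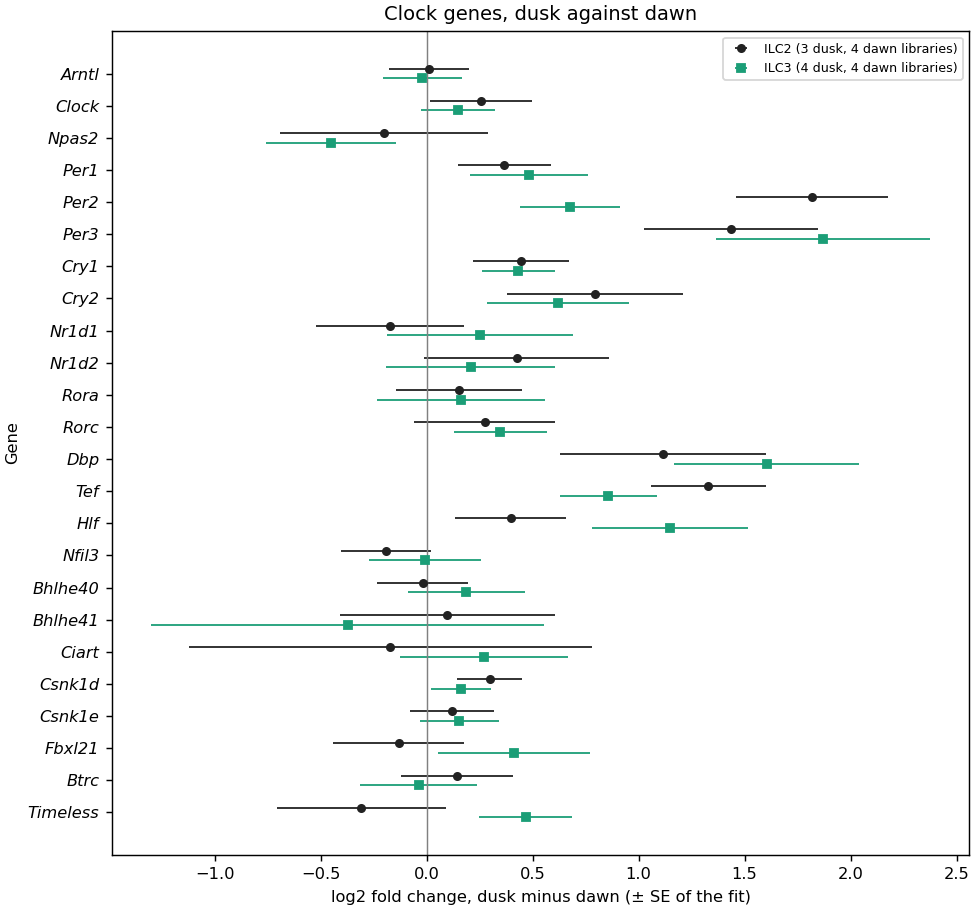
Log2 fold change, dusk minus dawn, with the standard error of the fit, for 24 of the clock genes in ILC2 (black circles) and ILC3 (green squares). Per2 (1.82), Per3 (1.44), Tef (1.33) and Dbp (1.11) lie farthest right in ILC2, and Per2 is the gene where the ILC3 value (0.68) is farthest below.

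Genes of cholesterol synthesis and uptake lay lower at dusk. This pathway runs from acetyl-CoA through mevalonate and squalene to cholesterol, and SREBP2 switches its genes on together when membrane sterol is low. Of 22 genes tested, 21 had a negative difference, beside 53.2% of all genes, with a median of -0.40 against -0.02. An unadjusted p under 0.05 with a lower level at dusk was found for 5 (22.7%, beside 1.6% of all genes), and 4 had no overlap between the windows (18.2%, beside 2.39%). These genes share a regulator and are not independent of each other.

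Nsdhl, a sterol demethylation enzyme (Entrez 18194; chromosome X, 72918521 to 72958528), had 34.5 and 31.4 CPM in the ZT10 libraries, 44.2 in that of ZT16, 93.6 and 53.0 in those of ZT23, and 64.4 and 70.0 in those of ZT4. Every dusk library lay below every dawn library (-0.93 ± 0.222). Mvk, mevalonate kinase (Entrez 17855; chromosome 5, 114444264 to 114460591), was at 16.8, 21.4 and 17.3 CPM at dusk and at 30.1, 30.3, 38.0 and 31.1 at dawn. Its windows were also apart (-0.80 ± 0.198). Msmo1, which oxidises methyl sterols, was at 72.1, 57.5 and 110 CPM at dusk and at 158, 113, 112 and 139 at dawn (-0.71 ± 0.234). Its ZT16 value was just under the lowest dawn value. The other genes with an unadjusted p under 0.05 were Mvd, in the mevalonate arm, with -0.52 ± 0.214, and Insig1, the sterol sensor that holds SREBP back, with -0.67 ± 0.267.

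Fdps, for farnesyl diphosphate, gave -0.74 ± 0.358 and did not reach that level. Srebf2, the regulator itself, gave -0.27 ± 0.181. Abca1, the exporter of cholesterol and the one member with a positive difference, was at 46.1, 17.0 and 18.5 CPM at dusk and at 15.3, 9.43, 20.2 and 5.25 at dawn (1.11 ± 0.472, with an unadjusted p under 0.05).

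The sterol genes were lowest in the ZT10 libraries. The median deviation of the 22 genes from their own mean, on a log2 scale with 0.5 CPM added, was -0.38 and -0.32 in the ZT10 libraries and 0.09 at ZT16, against 0.47 and 0.21 at ZT23. At ZT4 the libraries disagreed, with -0.09 and 0.25. Without both ZT10 libraries 17 of 22 genes were negative, 1 had an unadjusted p under 0.05 and the median was -0.15. Without the ZT16 library 11 genes were lower at that level, beside 187 of all 12831 genes tested. Leaving out ZT4 replicate 1 gave 10, beside 371 of 12486. There were 2 without ZT10 replicate 1, beside 200 of 13017, and 2 without ZT10 replicate 2, beside 137 of 12856. Without ZT23 replicate 1 there were 3, beside 171 of 12452, and without ZT4 replicate 2 there were 4, beside 152 of 12259. In ILC3, 9 of 22 genes were lower at an unadjusted p under 0.05 (40.9%, beside 10.1% of all genes in either direction), 20 were negative, and the median was -0.35. No sterol gene had an interaction p under 0.05, so a difference between the cell types was not detected.

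**Figure D3:**
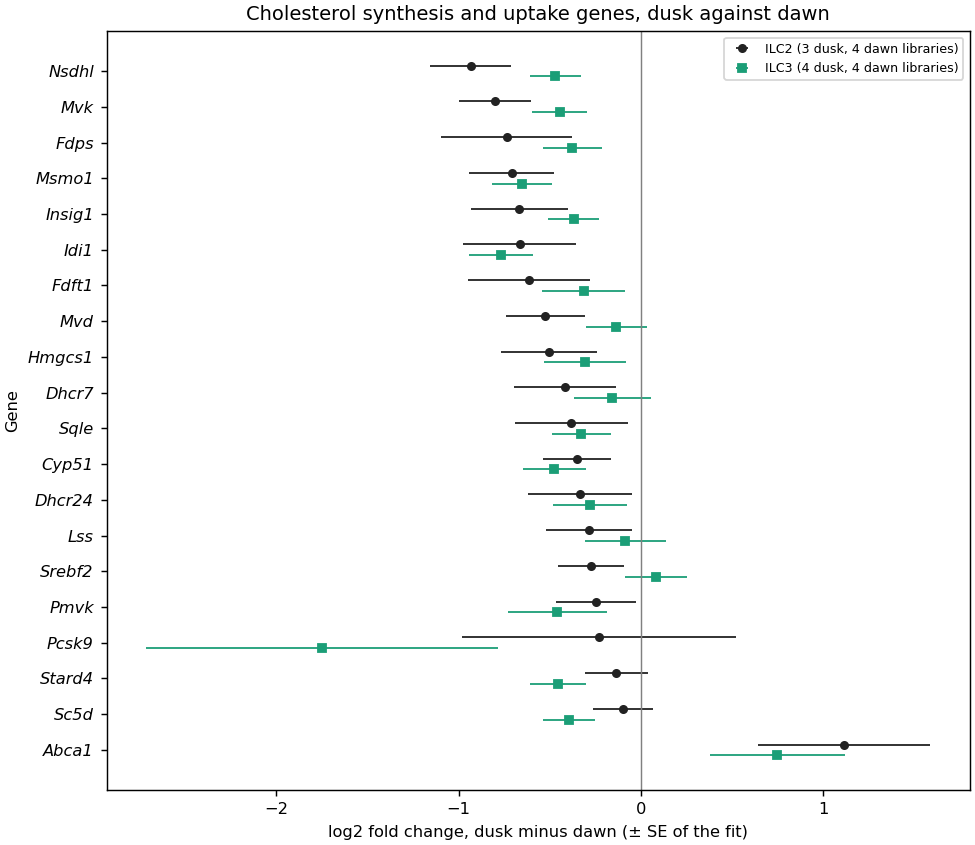
Log2 fold change, dusk minus dawn, with the standard error of the fit, for 20 of the cholesterol genes in ILC2 (black circles) and ILC3 (green squares), ordered by the ILC2 value. All but Abca1 (1.11) lie left of 0 in ILC2, and the ILC3 squares lie left of 0 for 18 genes.

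Beyond the clock, single genes were chosen for the smallest p among those without overlap between the windows. The rule took 12 genes each way, from 115 that met it on the higher and 49 on the lower side, so their p-values and gaps are descriptions of the choice. Kmt2b, a histone H3 lysine 4 methyltransferase (Entrez 75410; chromosome 7, 30568855 to 30589056), was at 115, 99.7 and 94.0 CPM at dusk and at 63.8, 61.6, 57.0 and 59.5 at dawn. The windows were apart, with the 4 dawn values between 57.0 and 63.8 (0.76 ± 0.152). Prrc2c, an RNA-binding protein gene, was at 317, 243 and 232 CPM at dusk and at 136 to 174 at dawn (0.84 ± 0.177). The chromatin remodellers Bptf (0.72 ± 0.175) and Chd3 (0.70 ± 0.175), the deadenylase subunit Pan3 (0.79 ± 0.183) and the AT-hook protein gene Akna (0.61 ± 0.15) were on the same side. Ankrd12 (1.02 ± 0.241), the Golgi protein giantin gene Golgb1 (0.86 ± 0.214) and the tRNA-modifying enzyme gene Cdkal1 (1.22 ± 0.301) joined them.

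Neb, which encodes the giant muscle filament protein nebulin, had the largest difference of that set after Per2. It had 93.2 and 54.5 CPM in the ZT10 libraries, 36.0 in that of ZT16, 11.3 and 16.9 in those of ZT23, and 18.4 and 30.2 in those of ZT4 (1.66 ± 0.365). ZT16 stood only a little above the highest dawn library, and the difference was 0.91 without the ZT10 libraries. In ILC3 Neb was at 0.917 ± 0.51 CPM at dusk and 0.713 ± 0.852 at dawn.

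On the lower side, 3 of the 12 genes belong to sterol synthesis: Nsdhl, Mvk and Tm7sf2, a sterol reductase gene outside the list. Tm7sf2 was at 4.02, 7.38 and 6.61 CPM at dusk and at 21.0, 11.2, 10.1 and 16.8 at dawn (-1.27 ± 0.355). Other enzymes of small molecule metabolism were Coasy, the last enzyme of coenzyme A synthesis (-0.77 ± 0.213), Gcat, a mitochondrial enzyme of threonine breakdown (-1.14 ± 0.31), and Ilvbl (-0.68 ± 0.181). Snrpa, which encodes a protein of the U1 splicing particle, was at 26.9, 34.0 and 36.4 CPM at dusk and at 45.9 to 60.3 at dawn (-0.70 ± 0.184). In ILC3 its difference was -0.03 ± 0.149, with an edgeR adjusted p = 1 for the interaction. The junction protein gene F11r gave -1.22 ± 0.288, the efflux transporter gene Abcg2 -1.04 ± 0.3 and Mettl26 -0.76 ± 0.193.

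The remaining lower genes, Clec12a and Ifi30, are abundant in myeloid cells. Clec12a, an inhibitory lectin receptor, was at 42.8, 37.3 and 31.5 CPM at dusk and at 72.5, 51.2, 62.1 and 60.4 at dawn (-0.73 ± 0.186). Ifi30, a thiol reductase used in antigen processing, was at 76.4, 71.4 and 91.6 CPM at dusk and at 112 to 132 at dawn (-0.60 ± 0.157). Macrophage and dendritic cell markers were negative in 16 of 16 genes, beside 53.2% of all genes, with a median of -0.46. Of these, 3 were lower at an unadjusted p under 0.05 (Cd68, Cd209a and Zbtb46), beside 1.6% of all genes. Their summed level was 551 to 1723 CPM at dusk and 971 to 2791 at dawn, and no marker was at 0. Without ZT4 replicate 1, the library that stood apart, 8 of 16 were negative, 1 had such a p and the median was -0.07. Over all genes 371 of 12486 were then lower at that level. Without ZT10 replicate 1 there were 7 with such a p, beside 200 lower of all 13017 genes, and without ZT10 replicate 2 the median was -0.12. Their part in the Clec12a and Ifi30 values was not tested, and fewer cells of a type and less RNA per cell cannot be told apart in bulk samples.

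**Figure D4:**
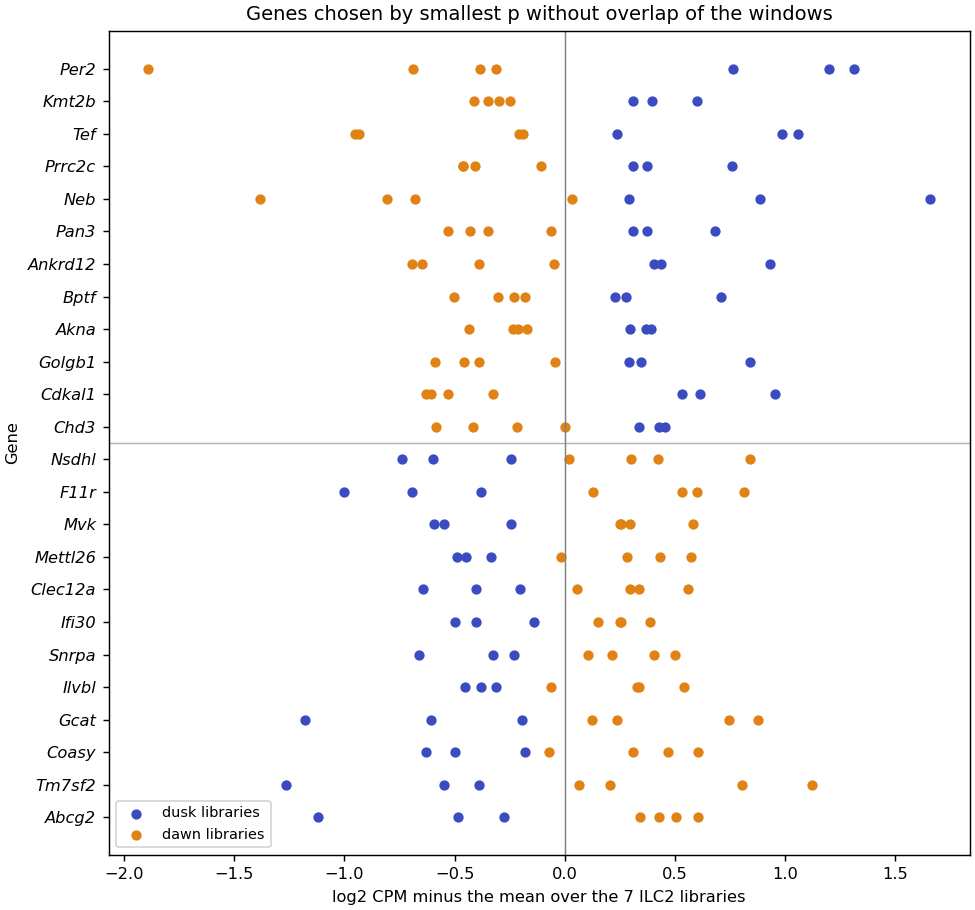
Log2 CPM of 24 genes in each of the 7 ILC2 libraries, centred on the gene's mean over them (blue points dusk, orange points dawn); genes above the grey line were higher at dusk and those below it lower. The colours do not overlap in any row because that was a condition of the choice, and Per2, Neb and Tef spread the most within a window on the higher side.

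Differences between dusk and dawn followed gene length. Genes were split into 5 equal groups by the length the authors deposited with the counts, from the shortest (up to 1575 bases) to the longest (4681 bases and more). The median difference was -0.16, -0.11, -0.02, 0.03 and 0.17 from the shortest to the longest group. In the longest group 208 genes were higher at an unadjusted p under 0.05 and 18 lower, and in the shortest 8 were higher and 66 lower. Of the 12 genes named as higher, 9 lay in the longest group. So did 208 of all 344 genes higher at that level and 218 of the 479 with every dusk library above every dawn library. The median length of the 12 was 7312.5 bases. The 12 named as lower had a median of 2220 bases, against 2824 for all genes. Across the 12591 genes, which are not independent, Spearman's rho of difference with length was 0.31, given as a description.

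The length pattern was not even within a window. The length index, the median log2 deviation of the longest group minus that of the shortest, was 0.48, 0.05 and 0.07 at dusk (ZT10 replicates 1 and 2, then ZT16) and -0.26, 0.31, -0.43 and -0.26 at dawn (ZT23, then ZT4). ZT23 replicate 2 thus lay on the dusk side, and the windows overlapped (0.199 ± 0.242 at dusk, -0.158 ± 0.324 at dawn; two-sided exact permutation p = 0.171). With the length trend taken out of each library, Per2 gave 1.60, Tef 1.21, Per3 1.20 and Dbp 1.24. Kmt2b then gave 0.47, Prrc2c 0.49, Neb 1.10 and Bptf 0.35. The sterol genes Nsdhl (-0.89) and Mvk (-0.71) moved little. In that setting 8 of 22 sterol genes were lower at an unadjusted p under 0.05, beside 230 of all 12591 genes. With the trend left in there were 5, beside 202.

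**Figure D5:**
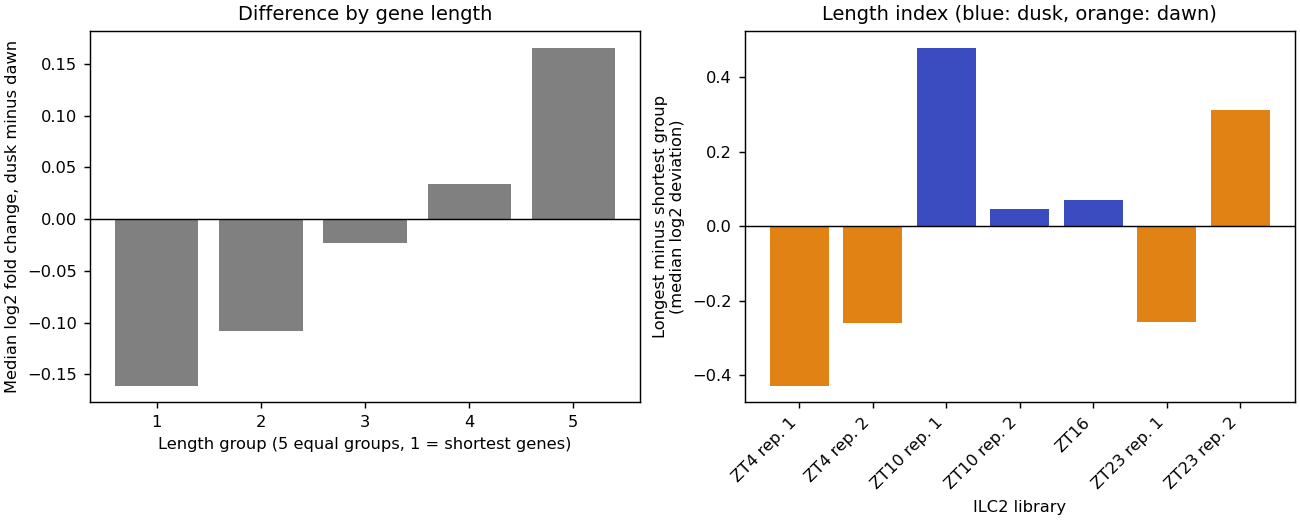
Left, median log2 fold change, dusk minus dawn, in 5 equal groups of the tested genes by length; right, the length index of each ILC2 library (median log2 deviation of the longest minus the shortest group), blue for dusk and orange for dawn. The left bars climb from -0.16 to 0.17, and on the right ZT23 replicate 2 (0.31) is the dawn library on the dusk side of 0.

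The windows overlapped for the type 2 cytokine and identity genes of ILC2. None of 21 identity genes tested had an unadjusted p under 0.05 in edgeR, and none had windows apart, so 0 passed at either level. Without ZT23 replicate 2, 2 identity genes were higher at that level, beside 828 of all 12267 genes. Gata3 was at 502, 626 and 412 CPM at dusk and at 283, 561, 620 and 354 at dawn (0.18 ± 0.28). The type 2 cytokine gene Il5 was at 56.3, 52.5 and 43.2 CPM at dusk and at 37.3, 72.8, 113 and 65.3 at dawn (-0.51 ± 0.306). Il13 gave 0.05 ± 0.331, Areg, the repair factor amphiregulin, -0.13 ± 0.298, and Nmur1, the receptor for neuromedin U, 0.05 ± 0.294. Among 18 effector genes tested, 1 had an unadjusted p under 0.05, the chemokine gene Cxcl3 (-1.10 ± 0.404), beside 1.6% of all genes lower. It was at 3.67 to 4.29 CPM at dusk and at 6.72 to 14.2 at dawn, where ZT4 replicate 1 was the highest. Without that library 2 effector genes were higher and 0 lower at that level, beside 322 and 371 of all 12486 genes. There were 4 lower without ZT23 replicate 1, beside 171 of 12452, and 2 lower without ZT10 replicate 1, beside 200 of 13017.

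Il22, the barrier cytokine gene typical of ILC3, had 17.7 and 20.0 CPM in the ZT10 libraries, 20.7 in that of ZT16, 2.26 and 11.8 in those of ZT23, and 10.8 and 1.00 in those of ZT4. The dusk values lay together above a scattered dawn (19.5 ± 1.56 against 6.46 ± 5.62), a difference of 1.60 ± 0.661. Over 20 alternatives it ran from 1.23 (without ZT4 replicate 2) to 3.11 (limma voom with sample quality weights). In ILC3 it was at 556 ± 251 CPM at dusk and 778 ± 571 at dawn, with an edgeR adjusted p = 1 for the interaction. The list of ILC3 and ILC1 genes, to which Il22 belongs, summed to 312 to 480 CPM at dusk and 177 to 509 at dawn in the ILC2 libraries, with 4 of 15 negative, beside 53.2% of all genes, and none at 0. Without ZT4 replicate 2, ZT10 replicate 2 and ZT23 replicate 1, 8, 9 and 9 of the 15 were negative. The part of other lymphoid cells in the Il22 value was not tested.

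Receptors for neural, hormonal and lipid signals gave 3 genes higher and 1 lower at an unadjusted p under 0.05 out of 22 tested, beside 2.73% and 1.6% of all genes. Of the higher genes, 0 were left at that level with the length trend taken out, without ZT4 replicate 2 or without ZT10 replicate 1. Over all genes 200 of 12591, 205 of 12259 and 125 of 13017 were then higher. There was 1 without ZT10 replicate 2, ZT16 or ZT23 replicate 1, beside 240 of 12856, 226 of 12831 and 247 of 12452 genes. The count of lower genes was 0 without either library of ZT10, ZT4 replicate 2 or ZT23 replicate 2. Over all genes 200 of 13017, 137 of 12856, 152 of 12259 and 490 of 12267 were lower in these settings. Calcrl, the receptor for calcitonin gene-related peptide, was at 40.0, 35.6 and 33.5 CPM at dusk and at 19.0 to 30.0 at dawn (0.49 ± 0.206). Insr, the insulin receptor, was at 31.0, 29.9 and 29.1 CPM at dusk and at 14.0 to 26.1 at dawn (0.62 ± 0.24). Ptger2, a prostaglandin E2 receptor, was at 13.0, 6.66 and 9.74 CPM at dusk and at 3.91 to 6.30 at dawn (0.81 ± 0.369). Vdr, the vitamin D receptor, was at 5.67, 6.40 and 9.88 CPM at dusk and at 15.8, 25.4, 5.05 and 24.6 at dawn, where ZT4 replicate 1 had the lowest value of all (-1.27 ± 0.476). Epithelial markers summed, in the same order, to 517, 564 and 794 CPM at dusk and to 961, 1166, 244 and 2105 at dawn. The part of epithelial cells in the Vdr value was not tested.

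Known clock output genes gave 2 higher and 2 lower of 21 tested at an unadjusted p under 0.05, beside 2.73% and 1.6% of all genes. There were 0 higher and 1 lower without ZT4 replicate 2, ZT23 replicate 1 or either ZT10 library, and 2 higher and 0 lower without ZT16. Without ZT4 replicate 1 there were 2 higher and 1 lower, and without ZT23 replicate 2 there were 1 and 2. Over all genes, 205 were higher and 152 lower without ZT4 replicate 2, and 247 and 171 without ZT23 replicate 1. Those counts were 125 and 200 without ZT10 replicate 1, 240 and 137 without ZT10 replicate 2, and 226 and 187 without ZT16. They were 322 and 371 without ZT4 replicate 1, and 828 and 490 without ZT23 replicate 2. Each setting tested 12259 to 13017 genes. Klf9, a factor that answers both the clock and glucocorticoids, was at 46.8, 52.1 and 31.4 CPM at dusk and at 17.5, 37.4, 25.7 and 31.3 at dawn (0.63 ± 0.276). Lonrf3 gave 1.34 ± 0.575 at 1.15 to 4.49 CPM, and the zinc finger factor gene Klf10 -0.54 ± 0.194. Pnp, purine nucleoside phosphorylase, gave -0.40 ± 0.17. Tsc22d3, the glucocorticoid-induced leucine zipper, gave -0.18 ± 0.298.

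Immediate-early genes (28 tested), heat shock and cold-inducible genes (21), NF-kB genes (20), homing genes (26), cell cycle genes (28) and unfolded protein response genes (22) had 0 members at an unadjusted p under 0.05 in edgeR. With 1 library left out, none of these lists had more than 2. The homing and cell cycle genes reached 2 without ZT23 replicate 2, where 1318 of all 12267 genes were at that level. Of 26 genes of oxidative phosphorylation 0 were at that level, and 22 had a negative difference (median -0.20), beside 53.2% of all genes. Without ZT23 replicate 2 there were 7 lower, where 490 of all 12267 genes were lower at that level. The median was -0.09 with the length trend taken out and -0.11 without ZT10 replicate 1. Of 30 ribosomal protein genes 0 were at that level, and their median had no stable sign. It was -0.08 over all 7 libraries, 0.07 without ZT4 replicate 1, -0.27 without ZT10 replicate 2 and 0.04 with the length trend taken out. Hspa1a, the inducible heat shock protein gene, spanned 128 to 1470 CPM without following the windows (0.36 ± 0.718). In glycolysis, Tpi1 (-0.39 ± 0.154) and Aldoc (-1.04 ± 0.393) were the 2 of 20 at that level, both lower, beside 1.6% of all genes. There were 0 without ZT10 replicate 1 or ZT16, and 1 without ZT4 replicate 2, ZT10 replicate 2 or ZT23 replicate 1. Over all genes 200 of 13017, 187 of 12831, 152 of 12259, 137 of 12856 and 171 of 12452 were lower in these settings.

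Class II antigen presentation genes were negative in 10 of 10, beside 53.2% of all genes, with a median of -0.65. The peptide loading genes H2-DMa (-0.62 ± 0.252) and H2-DMb1 (-0.79 ± 0.295) were the 2 at an unadjusted p under 0.05, beside 1.6% of all genes lower. Their summed level was 3576, 6195 and 7723 CPM at dusk and 5807 to 13310 at dawn, highest in ZT4 replicate 1. Without that library no gene of the list had such a p and the median was -0.38. The count was also 0 without ZT10 replicate 2 or ZT16 and with the length trend taken out. It was 4, 5 and 7 without ZT4 replicate 2, ZT10 replicate 1 and ZT23 replicate 2. Over all genes 152 of 12259, 200 of 13017 and 490 of 12267 were lower at that level in these settings. Epithelial markers were negative in 19 of 21 (median -0.65), beside 53.2% of all genes. They were negative in 15 of 20 without ZT4 replicate 2 (-0.28) and in 14 of those tested without ZT23 replicate 2 (-0.31). Lyz1, the lysozyme of Paneth cells, was at 153, 101 and 167 CPM at dusk and at 230, 319, 168 and 718 at dawn (-1.36 ± 0.426). Their summed level was 517 to 794 CPM at dusk and 244 to 2105 at dawn, with no marker at 0. Without ZT4 replicate 1, where the sum was lowest, 9 of 21 were lower at an unadjusted p under 0.05 rather than 1. Over all genes 371 of 12486 were then lower at that level, against 202 of 12591 with all 7 libraries. Without ZT16 there were 2 epithelial genes, beside 187 of all 12831 genes. Lyz1 gave -0.77 without ZT4 replicate 2, its highest library. T cell markers were negative in 1 of 16 (median 0.30), beside 53.2% of all genes, with a summed level of 1426 to 1751 CPM at dusk and 1138 to 1635 at dawn and no gene at an unadjusted p under 0.05. Without ZT10 replicate 2, 6 of 16 were negative and the median was 0.08. It was 0.13 without ZT23 replicate 1 and 0.58 without ZT4 replicate 1, where 2 genes were higher at that level, beside 322 of all 12486. Plasma and B cell markers were negative in 14 of 16 (median -0.32), beside 53.2% of all genes. Their sums were 36990 to 97670 CPM at dusk and 19410 to 188200 at dawn. Their direction rested on single libraries: without ZT23 replicate 1, 6 of 16 were negative (median 0.10), and without ZT10 replicate 2, 8 of 16 (-0.02). The median was -0.19 without ZT4 replicate 2, -0.56 without ZT23 replicate 2 and -0.70 without ZT16. The part of these cells in the differences above was not tested.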

How the data were processed

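Poly(A) RNA of sorted ILC2 was sequenced from TruSeq libraries made from 100 ng of total RNA, per the labels' protocols. The authors deposited whole-number read counts per gene with gene lengths, counted with featureCounts on mm10, per the submitters' processing notes. Aligner, strand setting and handling of multi-mapped reads are not given in the sources used here. Of 22797 genes, 22718 were named through RefSeq (GRCm38.p6).

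Counts were fitted in edgeR 4.0.16 (R 4.3.3) by quasi-likelihood with TMM factors and 2 group means over the 7 ILC2 libraries (5 residual degrees of freedom), after filterByExpr with a minimum count of 10. The same fit was made in 8 ILC3 libraries, and an interaction was fitted over all 15. Benjamini-Hochberg adjustment ran over all genes tested, two-sided, at 0.05. The pipeline was tested on simulated data. The quality weight of limma was highest (1.95) in the shallowest library, ZT10 replicate 1 (4016298 counts), and lowest (0.375) in ZT23 replicate 2 (17716743). It comes on top of voom's own weights, which already allow for depth. It therefore describes how closely a library followed the fitted window means. Libraries of a time differed beyond sampling noise (chi-square per degree of freedom 22.0 to 229).

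Named genes were every clock gene, the 12 per direction with the smallest p among those without overlap, with at least 10 CPM in the higher window and a log2 difference of at least 0.58, and up to 3 members per list; further genes in the text were picked with their values in view. The members and the 34 gene lists (597 entries, 596 found) were chosen with earlier results of these data known. Alternatives were DESeq2 1.42.0, limma 3.58.1 voom with quality weights, other filters and scalings, other groupings and leaving out libraries. A few list members are counted in their lists but not reported here by name or drawn.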

Additional observations from a re-analysis of the deposited data

Results flagged for a closer look

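In groups of 4 libraries, the highest or lowest value was compared with its nearest neighbour by Dixon's criterion, and 17 of 187 groups stood out. The criterion's rate of about 1 in 20 holds for independent, normally distributed values. These were CPM of many genes in the same libraries, so the 17 cannot be set against that rate. ZT4 replicate 1 of ILC2 was the outlying dawn library for 7 genes. It was high for the class II gene H2-Aa (2530 CPM, nearest 1288), for the ribosomal protein genes Rps7 (796 CPM, nearest 426) and Rps2 (726, nearest 482), and for the checkpoint receptor gene Ctla4 (239, nearest 136). It was also high for the stress gene Ier3 (40.9 CPM, nearest 11.9), for Cxcl3 (14.2, nearest 6.87) and for Mvk (38.0, nearest 31.1). ZT4 replicate 2 was high for the collagen gene Col1a1 (24.2 CPM, nearest 4.56) and for Prrc2c (174, nearest 141), and low for the interferon factor gene Irf7 (82.6, nearest 139). ZT23 replicate 2 was low for Cry2 (4.43 CPM, nearest 13.7) and high for the cytokine receptor gene Il23r (4.69, nearest 1.16).

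In ILC3, Per3 was high in ZT4 replicate 2 (7.96 CPM, nearest 2.11) and Btrc was low in ZT23 replicate 2 (13.3, nearest 26.7). In ZT16 replicate 2 of ILC3, Hlf was low (21.0 CPM, nearest 49.9), Bhlhe41 high (1.82, nearest 0.377) and Timeless high (28.1, nearest 21.2).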

How the results depend on the processing

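Of 20 alternatives for ILC2, 19 called 0 genes, leaving out each library in turn included (0 to 0), and DESeq2 called 3. At an unadjusted p under 0.05 the alternatives ranged from 134 to 1445 genes beside the 546 reported. Leaving out 1 library gave 325 (without ZT10 replicate 1) to 1318 (without ZT23 replicate 2). A replicate block over the 6 numbered libraries called 0 genes; same-numbered libraries deviated together only weakly (correlations 0.08, -0.01 and 0.11), so the numbers were not taken to pair them. In ILC3 and for the interaction, the 10 and 17 alternatives called 0 genes each, with 561 to 2428 and 252 to 953 genes at an unadjusted p under 0.05. For 131 named genes, 2542 of 2617 alternative values kept the sign, and none of the 75 sign changes was in a gene with an unadjusted p under 0.05. Apart from the clock genes, these genes were chosen by the smallest p in the fit to the same libraries. A kept sign is therefore in part fixed by that choice and is no separate support. Scaling by library size alone moved the median of all genes from -0.02 to 0.06. The lone ZT16 library has no replicate, and the cause of these shifts was not tested.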
